A study of Mus musculus with 2 samples.

Results

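The 10 genes described here belong to the integrated stress response: the transcription factors Atf4, Atf5 and Ddit3 (Chop), the target genes Asns, Psat1, Chac1, Trib3 and Sesn2, and the endoplasmic reticulum stress genes Xbp1 and Herpud1. They were found by the gene name printed for each probe in the scanner files, which gave 12 probes. Of these, 11 probes, covering all 10 genes, were well above background on both arrays, among 13663 genes measured on both arrays. The tissue was tibialis anterior, a shin muscle, taken from C57BL/6 mice, all adult and male. The control group is 1 control mouse. The other group is 1 N2ICD-mTG mouse, transgenic for N2ICD, an activated form of the receptor Notch2. Each sample was hybridised to 1 array. The promoter that drives the transgene, the line it came from and the genotype of the control beyond the word control are not given in the labels or file headers.

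In the integrated stress response, any of several kinases phosphorylates the translation factor eIF2alpha when a cell senses amino acid shortage, unfolded protein in the endoplasmic reticulum, mitochondrial stress or viral RNA. General translation then slows, while the messages of Atf4 and Atf5 are translated better through upstream reading frames, so that much of the control over these proteins does not appear in the amount of their messages. Atf4 pairs with other leucine zipper proteins, binds C/EBP-ATF response elements, and turns on genes for amino acid synthesis and uptake, for dampening the response, and, under long stress, for cell death. In muscle the pathway is best known from mitochondrial myopathies and from fasting.

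A window of 250 bases before to 50 bases after each annotated transcript start was taken from RefSeq (GRCm38.p6). All 10 genes matched by symbol, with 12 windows in all, since Atf5 and Psat1 have 2 starts each. The core TGATGNAA of the C/EBP-ATF response element was searched on both strands and lay in the windows of Chac1, Herpud1, Asns and Trib3. Of all 32851 windows of this length, 3.97% hold it. The form with C at the open position, TGATGCAA, is contained in that core. It lay in the windows of Chac1 and Herpud1 and in 0.895% of all windows. The element ERSE-II (ATTGG, any base, then CCACG), first known from Herpud1, lay in the Herpud1 window and in 0.0365% of all windows. The other letters searched gave no match in these 12 windows: ERSE (CCAAT, any 9 bases, then CCACG, in 0.119% of all windows), an Xbp1 site (TGACGTGG, 0.676%) and the cyclic AMP response element (TGACGTCA, 1.79%). These are matches of letters, not measured binding.

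Among the 3 genes with the core before the start, Chac1 had a log2 difference (N2ICD minus control) of -1.08. Asns and Herpud1 both had 0.03. The stretches below show the core in these 3 genes. They are Chac1 from base 230 to base 131 before its start (chr2:119351012-119351111, plus strand), Asns from base 100 to base 1 (chr6:7693210-7693309, minus strand) and Herpud1 from base 140 to base 21 (chr8:94386289-94386408, plus strand), all on GRCm38.p6 and 5′ to 3′ along the gene. Capitals mark the matches. In Chac1 and Herpud1 the core reads on the other strand, and the second capital run of Herpud1 is ERSE-II.
Chac1: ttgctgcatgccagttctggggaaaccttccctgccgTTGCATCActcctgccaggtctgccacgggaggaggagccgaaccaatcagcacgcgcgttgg
Asns: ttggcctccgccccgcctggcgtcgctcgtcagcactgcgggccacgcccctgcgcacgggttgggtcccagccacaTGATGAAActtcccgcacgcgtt
Herpud1: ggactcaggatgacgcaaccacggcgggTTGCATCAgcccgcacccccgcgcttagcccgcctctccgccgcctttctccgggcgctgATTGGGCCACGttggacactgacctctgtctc

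The core began 193 bases before the start in Chac1, 112 in Herpud1 and 23 in Asns. In Trib3 it lay after the start, from base 15 to base 22 of the transcript.

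**Figure D1:**
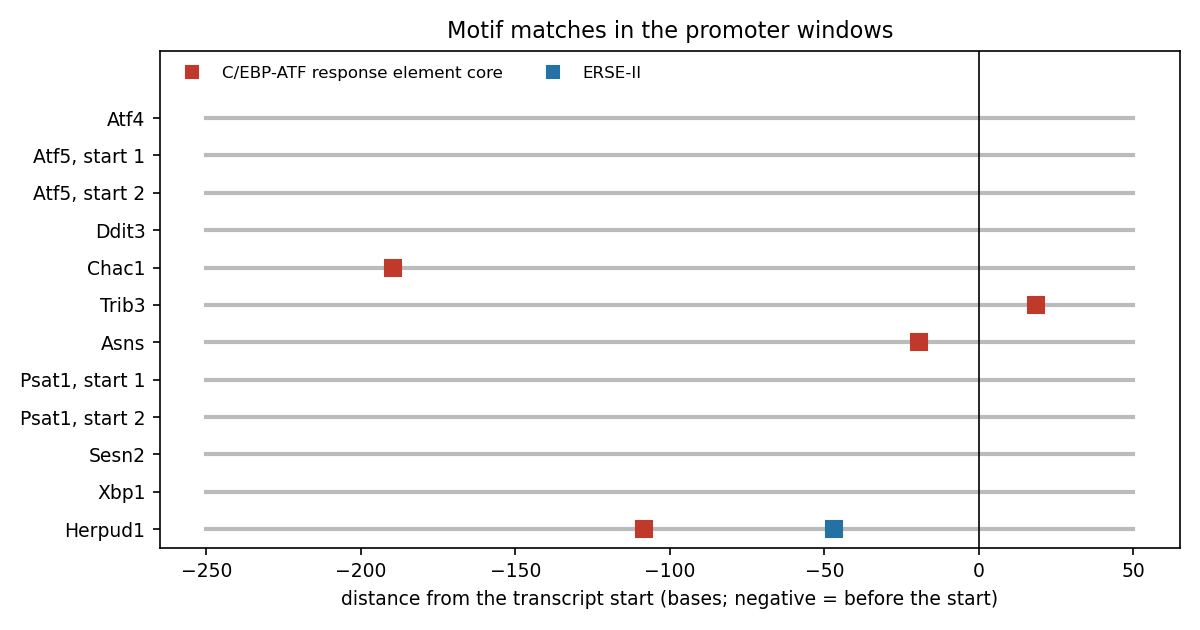
Position of motif matches, in bases from the annotated transcript start, in the 12 promoter windows of the 10 genes. Red squares mark the C/EBP-ATF response element core and the blue square ERSE-II. Of the 10 genes, 4 have a match and 6 have none in this window.

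The labels were checked first on the transgene. The Notch2 probe at transcript position 7448 read 221 for N2ICD against 6.01 for control, the latter not well above background, which makes it at least 7.72-fold higher in N2ICD. The probe at position 10129 read 189 for control and 179 for N2ICD, a log2 difference of -0.25, and Hes1, a Notch target, was 5.59-fold higher in N2ICD. All 12 skeletal muscle fibre markers were measured on both arrays, and none of 4 liver markers passed the background limit on either. Of 59305 spots that were no controls, 24916 in control and 24982 in N2ICD were well above background, and none was saturated.

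Signals below are the processed spot signals of the scanner, in arbitrary units, and each member probe had 1 spot per array. The N2ICD array was the brighter one, with a 75th percentile of 190 against 169, so an equal level gives a signal about 1.13 times as high there. Differences are therefore log2 values, N2ICD minus control, after each array was reduced by its 75th percentile. With 1 animal per group there was no test, no difference has a replicate check, and genotype, animal and array cannot be told apart. The arrays' number limits the precision. The error that could be measured is the spot noise, the SD of a difference between spots of one probe, which ran from 0.25 in the dimmest to 0.05 in the brightest of 4 level groups of 61 probes each. In bulk muscle, fewer cells of a type and less RNA per cell cannot be told apart.

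Chac1 was the 1 gene of the 10 that lay 2-fold or more lower in N2ICD, and 0 of the 10 lay 2-fold or more higher. Over all genes 0.893% were at least 2-fold lower and 1.42% at least 2-fold higher. The other 9 genes ran from -0.22 for Trib3 to 0.41 for Xbp1. Of the 10, 6 lay above 0, as did 50.7% of all genes, and their median of 0.03 stood beside a median of 0.01 over all genes. At 1.5-fold the counts were 1 gene lower and 0 higher, against 4.84% and 5.08% of all genes. The directions of Ddit3, Trib3 and Psat1 turned to above 0 when the E1A spike-in spots set the scale, which moved the median of all genes up by 0.48.

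**Figure D2:**
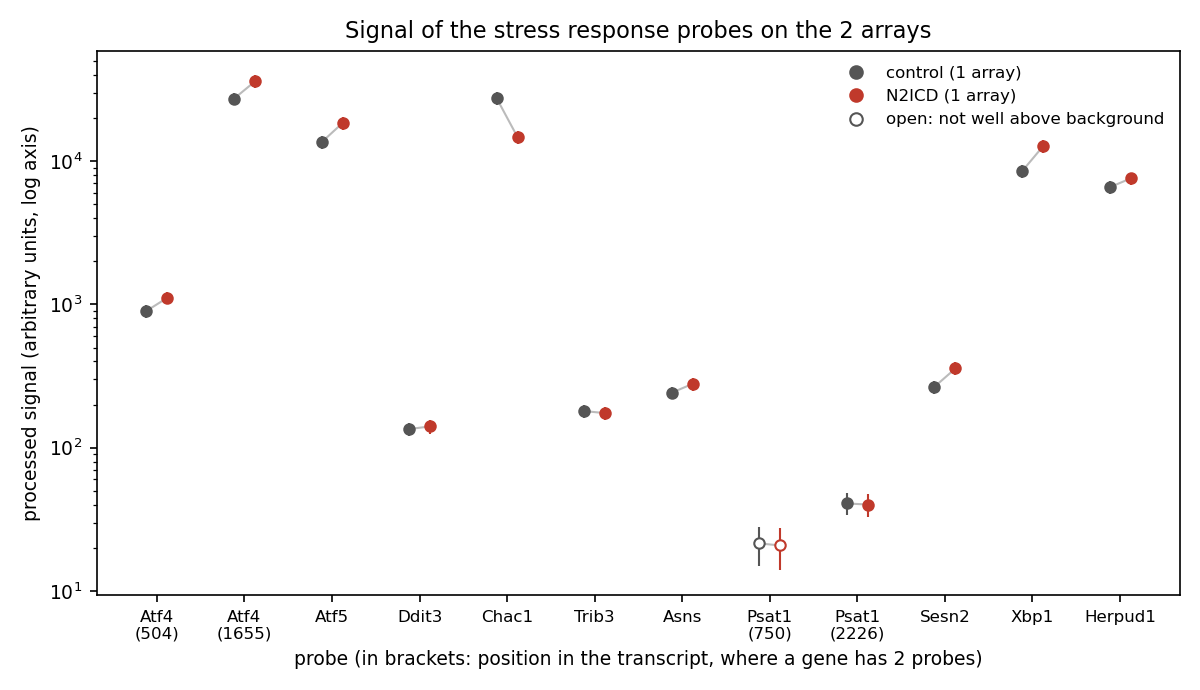
Processed signal (arbitrary units, log axis) of the 12 probes in control (grey) and N2ICD (red), with the scanner software's error estimate as bars; open circles are not well above background. Chac1 runs from 27555 down to 14698, Trib3 and Psat1 are slightly dimmer on the N2ICD array, and the other probes are brighter there, as that array was on the whole.

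Atf4, the central transcription factor of the response, is read by 2 probes on chromosome 15. All probe positions are on mm9, and whether a probe lies in coding sequence or UTR was not analysed here. The probe at transcript position 504 (80086639 to 80086698) read 901 ± 90.2 (the scanner software's error estimate, 1 spot) for control and 1115 ± 112 for N2ICD, which is 0.14 apart on the log2 scale. The probe at position 1655 (80087902 to 80087961) had signals of 27320 and 36089, a difference of 0.23. Both probes were brighter on the N2ICD array, and their differences lay closer together than the SD of 0.25 between probes of one gene. The gene's mean of 0.18 corresponds to a 1.13-fold higher level. The first 30 of the 60 bases of these probes are shown because they read different stretches of the same message.
Atf4 position 504: tcttcacgaaatccagcagcagtgttgctg
Atf4 position 1655: ggtgctttgtgcttgtacatagtcttgtgt

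Atf5, a related leucine zipper factor whose message is regulated in translation as Atf4's is, read 13555 for control and 18481 for N2ICD (chromosome 7, 52067627 to 52067686). Its difference was 0.28, or 1.21-fold, which is 5.08 times the spot noise at that level. The scanner software's own error estimate gives a wider SD of 0.20 for the same difference. Atf5 therefore lay above 0 by more than the spot noise and by 1 to 2 of those wider SDs.

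Ddit3 encodes Chop, the factor tied to cell death under lasting stress. Its probe had signals of 135 and 141, a difference of -0.11, which is within the spot noise SD of 0.13. This probe is shown whole because its target crosses an intron and so reads spliced message: its 60 bases span 304 bases of chromosome 10 (126732518 to 126732821).
Ddit3 position 288: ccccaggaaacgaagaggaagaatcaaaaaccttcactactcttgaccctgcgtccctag

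The metabolic targets were close to equal on the arrays. Asns makes asparagine from aspartate and is among the best-known Atf4 targets. Its signals were 242 and 279 (chromosome 6, 7625171 to 7625228) and its difference 0.03, within the spot noise SD of 0.13. Psat1 catalyses a step of serine synthesis. Its probe at position 2226 (chromosome 19, 15979622 to 15979681) had signals of 40.8 and 40.1 and a difference of -0.20, within the noise SD of 0.25 of such dim spots. Its other probe, at position 750, had 21.5 and 20.8, not well above background in either sample.

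Chac1, an enzyme that cleaves glutathione and a common readout of Atf4 activity, lay farthest from 0 of the 10 genes on the 75th percentile scale. On the spike-in scale Xbp1, Atf5, Sesn2 and Atf4 lay farther from 0 than Chac1. Its probe (chromosome 2, 119179990 to 119180049, position 1496 of the transcript) read 27555 ± 2756 (the software's error estimate, 1 spot) for control and 14698 ± 1470 for N2ICD. The signal on the N2ICD array was lower although that array had the higher 75th percentile. The log2 difference was -1.08, 2.11-fold lower, which is 19.9 times the spot noise of 0.05 at that level, while the scanner software's error estimate gives an SD of 0.20. Of the 13663 genes, 94 had a lower difference. In the 10% of genes highest in level, where 4 of the 10 lie, 0.219% were at least 2-fold lower and 0.805% at least 2-fold higher. The 3 genes lower there were Chac1, Nmrk2 (3.14-fold) and Cish (2.06-fold), the last 2 named after their values were seen. In the authors' deposited table Chac1 is listed as 2.09-fold down, and each of the 10 genes has the same direction there as here. The fold rests on this 1 probe, whose first 30 bases are given.
Chac1 position 1496: actacagtccttgtccattctcagttgacc

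The difference of Chac1 stayed between -1.14 and -1.01 under the 10 alternatives other than the spike-in scale. On the spike-in scale it was -0.60, no longer 2-fold, with all genes moved up together, and the number of genes below Chac1 was again 94. Its close relative Chac2, which cleaves glutathione more slowly, went the other way, with signals of 309 and 481 and a difference of 0.47.

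Trib3 is a pseudokinase that binds Akt and Atf4 and dampens the response. It had signals of 180 and 174 (chromosome 2, 152163161 to 152163220) and a difference of -0.22, 1.70 times the spot noise. Among the other Tribbles genes, Trib1 lay at 0.29, the mean of 2 probes at 0.18 and 0.39, and Trib2 at -0.36. Sesn2, a leucine sensor that restrains mTORC1, had signals of 266 and 357 (chromosome 4, 132048858 to 132048917) and a difference of 0.25, 1.96 times the spot noise. Its relatives Sesn1 and Sesn3 had 0.04 and 0.14. None of these 6 Tribbles and sestrin genes passed 1.5-fold, and Trib3 and Sesn2 lay within 2 SD of the spot noise.

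Xbp1, the factor activated when Ire1 splices its message, read 8493 for control and 12713 for N2ICD (chromosome 11, 5425816 to 5425875). Its difference of 0.41, or 1.33-fold, was the highest of the 10 genes and 7.56 times the spot noise. The scanner software's error estimate gives an SD of 0.20, about 2 of which make up the difference, and neither error holds the spread between animals. Of all genes, 1382 of 13663 had a higher difference. The probe is listed in the files for 2 transcript variants, so spliced and unspliced message were not separated. Herpud1, a membrane protein of the degradation machinery of the endoplasmic reticulum, had signals of 6572 and 7580 (chromosome 8, 96919117 to 96919176). Its difference was 0.03, within the spot noise of 0.05, and quantile normalization and loess turned it to below 0, at most -0.02. Herpud1 at 0.03 and Chac1 at -1.08 both have TGATGCAA in their windows.

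**Figure D3:**
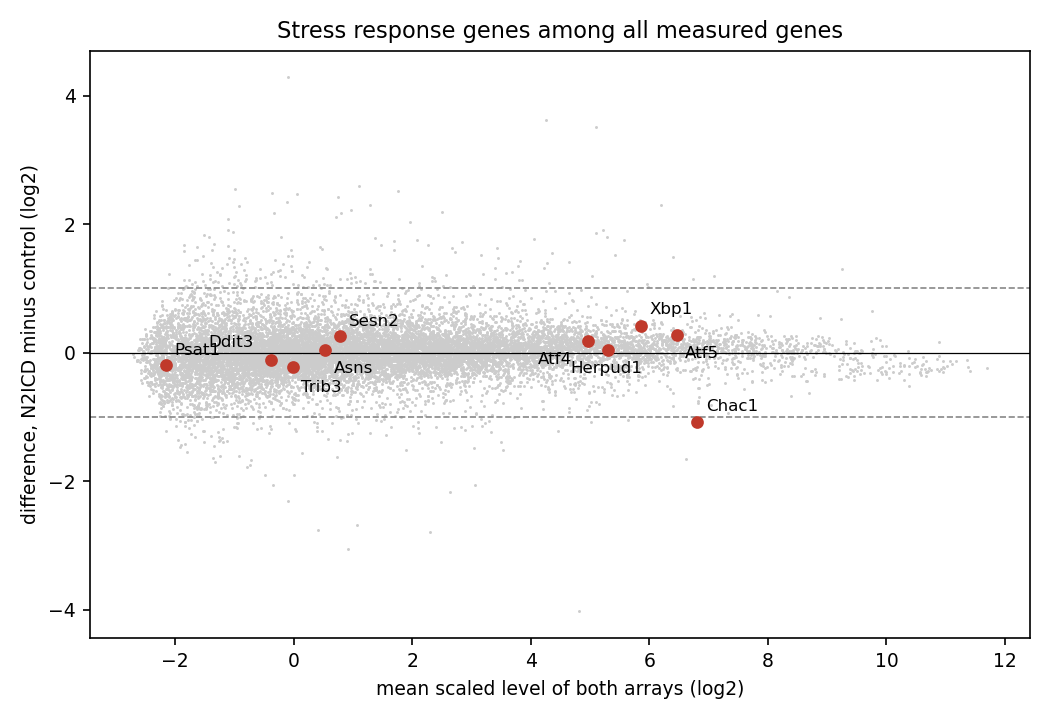
Log2 difference (N2ICD minus control) against the mean scaled level of both arrays for 13663 genes (grey), with the 10 stress response genes in red and dashed lines at 2-fold. Chac1, at -1.08, lies below the lower line, and the other 9 lie between -0.22 and 0.41.

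The rest of the pathway was described by 8 lists holding 150 genes, of which 129 were measured on both arrays. At least 2-fold higher was 1 of them (0.775%) and at least 2-fold lower were 2 (1.55%), beside 1.42% and 0.893% of all genes, with a median of 0.05. The gene past 2-fold upwards was Atf3, and those downwards were Gpt2 and Yme1l1. On the spike-in scale this balance turned, with 7 of the 129 genes at least 2-fold higher (5.43%) and 0 lower, beside 6.57% and 0.183% of all genes. The 7 were Ppp1r15a, Atf3, Cebpd, Slc38a2, Eif4ebp1, Gadd45b and Atf6, of which Cebpd and Gadd45b are named after their values were seen. The counts past 2-fold in the lists below are on the 75th percentile scale.

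Upstream of Atf4, the kinases, phosphatases and eIF2B subunits acting on eIF2alpha had 16 of 18 genes measured, a median of 0.12, 14 above 0 and none past 2-fold. Ppp1r15a (Gadd34), the stress-induced subunit that directs dephosphorylation of eIF2alpha, came closest. It read 642 for control and 1436 for N2ICD, a difference of 0.99, or 1.99-fold, with a spot noise of 0.08. The constitutive subunit Ppp1r15b read 51.1 and 34.7, above background in control alone. Its difference was -0.73, or 1.66-fold lower in N2ICD, beside a spot noise of 0.25 in the dimmest level group. Eif2ak3 (Perk), the kinase of the endoplasmic reticulum, lay at 0.24. Eif2ak4 (Gcn2), the amino acid sensor, lay at -0.11, the mean of 2 probes at -0.35 and 0.13. Its remaining probe, which did not enter that mean, read 19.3 for control and 49.5 for N2ICD and was above background in N2ICD alone, so the Eif2ak4 probes disagree in direction.

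The leucine zipper partners and relatives of Atf4 had all 14 genes measured, a median of 0.13 and 11 above 0. Atf3, a stress-induced repressor that is also an immediate early gene, had signals of 122 and 736, 5.35-fold higher in N2ICD. Cebpb and Cebpg, which pair with Atf4 on its response elements, had 0.31 each, with Cebpb signals of 8931 and 12507. Nupr1, a stress-induced cofactor, had -0.09, and Creb3l1 was lowest at -0.33.

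Enzymes of amino acid and one-carbon metabolism had a median of -0.14 over 15 measured of 19, with 9 below 0, and 0.34 on the spike-in scale. Gpt2, the mitochondrial alanine aminotransferase, read 7909 for control and 4227 for N2ICD, a difference of -1.08, the same to 2 decimals as that of Chac1. On the spike-in scale it was -0.60. The serine pathway stayed near 0, with Phgdh at 0.06 over 3 probes, Psph at 0.01 and Shmt2 at -0.19. Mthfd2, a mitochondrial folate enzyme, was above background on the N2ICD array alone, with signals of 27.2 and 40.4. Its difference was 0.40, or 1.32-fold higher, beside a spot noise of 0.25 in the dimmest level group.

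Amino acid transporters had a median of -0.19 over 13 measured of 16, with 8 below 0, and 0.29 on the spike-in scale. The ends were Slc38a2 at 0.64, a glutamine and alanine carrier with signals of 1796 and 3160, and Slc38a10 at -0.58. The heavy chain Slc3a2 had -0.02. Its partner Slc7a5, a carrier of large neutral amino acids, passed the background limit in control alone with both probes. The brighter one read 49.0 and 32.7, a difference of -0.76, or 1.69-fold lower in N2ICD, beside a spot noise of 0.25 in the dimmest level group. The cystine carrier Slc7a11 read 6.17 and 5.85, not well above background in either sample.

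Cytosolic tRNA synthetases were the tightest list, from -0.11 for Wars to 0.22 for Tars over 13 measured genes, with a median of 0.09. Other reported Atf4 and Chop targets had a median of 0.14 over 18 measured of 26, from the cell death gene Bbc3 (Puma) at -0.60 to the translation repressor Eif4ebp1 at 0.70, and none passed 2-fold. The mTORC1 inhibitor Ddit4 had 0.30. The circulating stress hormones Fgf21 and Gdf15, which muscle secretes in mitochondrial disease, were not well above background on either array. Fgf21 had signals of 5.50 and 5.86, and Gdf15 had 5.76 and 6.13, so no difference was detectable at this signal.

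In the Xbp1 and Atf6 arms of the endoplasmic reticulum response 27 of 30 genes were measured, with a median of 0.07, 16 above 0, 11 below and none past 2-fold. The sensor Atf6 was highest at 0.61, with signals of 109 and 187, and the lectin Os9 lowest at -0.49. Among the chaperones, Hsp90b1 had 0.51, the Xbp1 target Dnajb9 0.42 over 2 probes at 0.37 and 0.47, and Hspa5 (BiP) 0.17. The sensor Ern1 (Ire1) had 0.10 in 1 of its 4 probes, the others being not well above background. Xbp1's own 0.41 lay inside the range of this list.

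Mitochondrial stress genes had a median of -0.04 over 13 genes. The protease Yme1l1 was 2.26-fold lower, at -1.18, with dim signals of 131 and 65.2 and a spot noise of 0.25. On the spike-in scale it was -0.70, no longer 2-fold. Spg7, another protease of the inner membrane, was highest of these genes at 0.41.

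**Figure D4:**
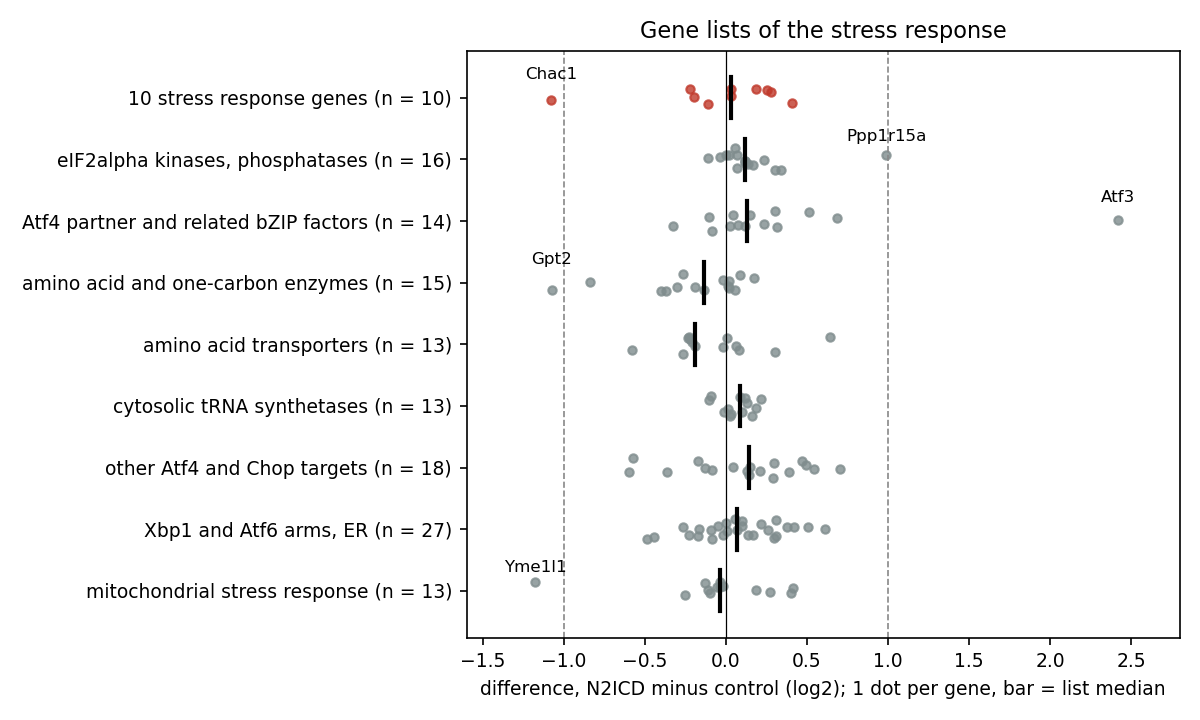
Log2 difference (N2ICD minus control) of each measured gene, 1 dot per gene, in the 10 stress response genes (red) and 8 pathway lists (grey); black bars are list medians and dashed lines 2-fold. Atf3 lies to the right of the upper line, Ppp1r15a at it, and Chac1, Gpt2 and Yme1l1 to the left of the lower one.

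Markers of other cell types also differed between these muscles. Endothelial markers had 5 of 6 measured below 0, with a median of -0.32, and 4 of 5 measured macrophage and leukocyte markers lay below 0, with a median of -0.44. Fibroblast markers had 4 of 7 below 0 and a median of -0.23, and satellite cell markers 4 of 5 above 0 and a median of 0.73. Among the satellite cell markers, Pax7 had only 0.14, at dim signals of 55.2 and 68.6. Myf5 and Calcr were above background on neither array. These genes are named after their values were seen. Erythroid markers had a median of -0.12 over 4 genes, adipocyte markers -0.08 over 4 and Schwann cell markers -0.08 over 4. Of the muscle fibre markers, 9 of 12 lay below 0, with a median of -0.19, Ckm lowest at -0.52 and Myh2 highest at 1.30. These directions, apart from that of the satellite cell markers (median 1.20 on the spike-in scale), depend on the scale. On the spike-in scale the medians were 0.16 for endothelial markers (2 of 6 below 0), 0.04 for macrophage and leukocyte markers (2 of 5), 0.24 for fibroblast markers (0 of 7) and 0.28 for muscle fibre markers (1 of 12), and those of the erythroid, adipocyte and Schwann cell markers were also above 0. The part of these cells in the Chac1 difference was not tested.

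**Figure D5:**
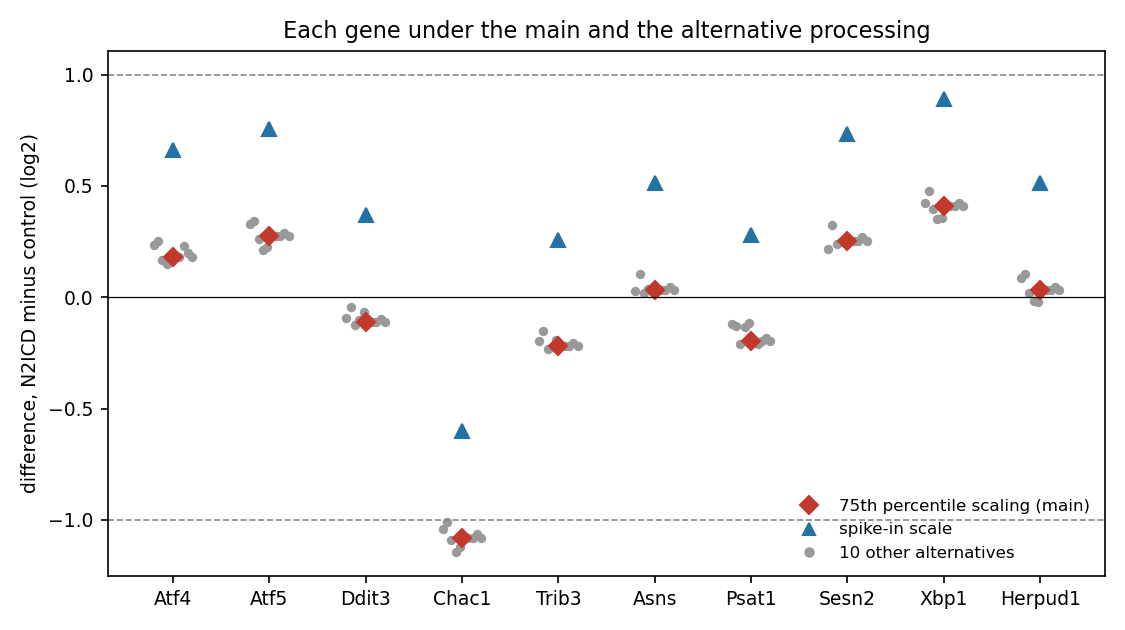
Log2 difference (N2ICD minus control) of each gene under the main scaling (red diamonds), the spike-in scale (blue triangles) and 10 other alternatives (grey dots), with dashed lines at 2-fold. The spike-in scale lifts all 10 genes by the same 0.48, and Chac1 is the lowest gene under every setting plotted.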

How the data were processed

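The scanner files hold spot intensity values that the authors made with Agilent Feature Extraction 10.10.1.1, with spatial and multiplicative detrending switched on, per the file headers. The headers also give 1 slide and 1 scan for both arrays and the build mm9. Another table, deposited by the authors, lists a fold (ratio) between the arrays and each array's intensity and log2 value, with no processing step named in it. It served as an alternative only.

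From each log2 processed signal the 75th percentile of its array, control spots left out, was subtracted. After 215 outlier spots were dropped, spots of one probe were averaged (55672 probes), and probes that passed the software's background test on both arrays were averaged per gene. Genes other than the 10 were named through RefSeq accessions (GRCm38.p6) where these matched 1 symbol. The Notch2 bound divides the brighter array's value by the higher of the dim value and the lowest value well above background. The folds of Mthfd2, Ppp1r15b and Slc7a5 are plain ratios, as their dim values lay above that lowest value. The bound and these ratios are on the 75th percentile scale. Spot noise came from 244 probes with at least 3 spots. The named genes were the 10 genes, 29 fixed by name, and in each list those past 2-fold and the highest and lowest. A gene that this rule names is not reported here. The members and lists were chosen with earlier results of these data known. Only the averaging per gene was run on simulated probe values with large known differences. Scaling, the background filter, outlier removal and gene naming were not tested this way. Software was Python 3.11.15, R 4.3.3 and limma 3.58.1.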

Additional observations from a re-analysis of the deposited data

How the results depend on the processing

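In all, 11 settings were tried for each gene: normexp background correction (offset 50), median scaling, a 75th percentile over spots above background on both arrays, the spike-in scale (7 probes), quantile normalization, loess, 2 looser filters, the brightest probe, the authors' deposited table and names from the files alone. The number at least 2-fold lower was 1 under these, except 0 on the spike-in scale, and 0 at a threshold of 4-fold. The number at least 2-fold higher was 0 under all of them. At 1.5-fold and 4-fold it was 0 on the 75th percentile scale. On the spike-in scale Xbp1 (0.89), Atf5 (0.75), Sesn2 (0.73) and Atf4 (0.66) lay more than 1.5-fold higher. The median of the 10 genes was 0.51 on the spike-in scale and between 0.01 and 0.10 under the others. Over all genes, 194 were 2-fold or more higher and 122 lower (61.4% higher), against 897 and 25 (97.3% higher) on the spike-in scale, 81 and 43 with normexp, 364 and 328 with a probe above background on either array, and 835 and 968 with no filter; 20 and 9 passed 4-fold. The number of genes below Chac1 was 35 with normexp, 266 with the either-array filter and 813 with none. No paired analysis was possible because each group has 1 sample, which also leaves no replicate to leave out. Dim probes limit Psat1, Ddit3 and Trib3, whose differences lie within 2 SD of the spot noise.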

Other observations

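Promoter letters were also set against the differences of all measured genes, as a description without a test. Of 249 measured genes with the core TGATGNAA in a promoter window, 2 lay past 2-fold upwards in N2ICD and 6 past 2-fold downwards. Chac1 itself is 1 of those 6. The median log2 difference of the 249 genes was -0.03. Of all 13663 genes 1.42% lay past 2-fold upwards and 0.893% downwards, with a median of 0.01. For the 66 genes with TGATGCAA the counts were 1 upwards and 1 downwards, the latter being Chac1, and the median was -0.01. The 8 genes with ERSE-II had a median of 0.14 and the 16 with ERSE 0.04, with none past 2-fold in either. Of the 98 genes with the Xbp1 site 1 lay past 2-fold upwards and 1 downwards, with a median of 0.07, and of the 344 with the cyclic AMP response element 1 and 2, with a median of 0.05.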
